A study of Homo sapiens with 16 samples.

Results

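The response of A549 cells 1h after carbon ions (C12) was compared with that 1h after X-rays, using the 4 C12 arrays and the 4 X-ray arrays taken at that time out of 16 arrays in all. A549 is an established human lung adenocarcinoma line. Each 2-colour Agilent array held RNA of an irradiated plate and of the control plate of the same radiation and time, labelled with Cy3 and Cy5 in a balanced dye swap, so every value is a ratio within an array. X-rays came from a 6 MV linear accelerator at 3 Gy per min, carbon ions from a spread-out Bragg peak, and no dose is stated for them, so the exposures may not have been equal in dose. RNA from 2 independent experiments was pooled before labelling, and the labels do not say whether arrays of a group came from separate pools. P-values therefore measure the spread between these arrays, which may be technical. Ratios give no expression level, so the cell line could not be checked by its markers, and fewer cells and less RNA per cell cannot be told apart.

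Carbon ions deposit energy densely along each track, whereas X-rays spread it sparsely through the cell. Breaks in DNA activate the kinases ATM and ATR, which stabilise the transcription factor p53, intact in A549. p53 then raises genes that halt the cell cycle, start cell death or repair DNA, together with genes such as PPM1D and MDM2 whose products switch p53 off again.

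The deposited ratios were turned so that positive values likely stand for higher signal in irradiated than in control cells, by multiplying replicates 1 and 2 of each group by -1. That rule was settled with the ratios in view, partly through the mean of a p53 target list. The direction of that list is therefore no evidence. How well arrays agree on its members, and so their p-values, also depended on that choice. With the opposite sign each rise here would be a fall and each fall a rise. The signs of the single C12 arrays are also unsettled, and values with C12 replicates 1 and 3 turned once more are given further on and called the alternative C12 signs. All values below are log2 ratios turned in this way. Differences are C12 minus X-ray, with SE from limma and n = 4 arrays per group, and a gene passed at a Benjamini-Hochberg adjusted p under 0.05 over 18334 genes.

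Of these 18334 genes, 3 passed with the lower value after C12 (0.0164%) and 0 with the higher (0%). They were GDF15, PLK3 and PPM1D, all known p53 targets and members of the list that entered the choice of sign. All 3 had a rise on the X-ray arrays. With the reported signs their mean was near 0 on the C12 arrays, which ran both above and below 0. With the alternative C12 signs the C12 means were 0.42, 0.29 and 0.23. At an unadjusted p under 0.05, 188 genes were higher and 252 lower, 440 in all or 2.40% of those tested. The median difference over all genes was -0.006.

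GDF15 encodes a secreted stress cytokine of the TGF-beta superfamily (Entrez gene 9518, chromosome 19, 18386158 to 18389176, plus strand, GRCh38.p14). The 250 bases before its start are shown because it had the largest difference among the genes that passed. Capitals mark the core letters of the TATA box (TATAAA), the CCAAT box (CCAAT) and the SP1 box (GGGCGG), searched on both strands with the cAMP response element (TGACGTCA). The further 20 bases lie just after the start, from base 29, and match the p53 consensus of a pair of 10-base half-sites with 3 mismatches, with the core of each half-site in capitals. Sequences are from RefSeq, GRCh38.p14, plus strand, at chr19:18385908-18386157 and chr19:18386186-18386205.
GDF15 upstream: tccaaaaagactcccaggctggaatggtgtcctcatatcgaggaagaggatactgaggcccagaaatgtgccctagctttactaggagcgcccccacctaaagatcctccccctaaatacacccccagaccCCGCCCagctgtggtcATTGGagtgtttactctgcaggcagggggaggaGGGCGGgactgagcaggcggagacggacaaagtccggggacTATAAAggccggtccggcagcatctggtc
GDF15 p53 match: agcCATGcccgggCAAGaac
Among the 14410 measured genes with a promoter entry, 8.31% of upstream windows held the TATA box, 34.6% the CCAAT box, 58.0% the SP1 box and 2.47% the cAMP response element. A p53 match with at most 3 mismatches lay in 1.10% of promoters (158), counting 250 bases before and 50 after the start, and in 4 of the 41 p53 list members with an entry. A match of letters is a description and not a bound site.

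The GDF15 ratio was -0.27, 0.52, -0.44 and 0.47 on C12 replicates 1 to 4, and 2.46, 1.34, 1.27 and 1.97 on X-ray replicates 1 to 4. The highest C12 array lay below the lowest X-ray array. GDF15 differed by -1.69 ± 0.16 (95% interval -2.04 to -1.35, limma adjusted p = 0.000597). The group means behind it were 0.07 ± 0.07 after C12 and 1.76 ± 0.15 after X-rays.

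PLK3 encodes a polo-like stress kinase that acts in cell cycle checkpoints (Entrez gene 1263, chromosome 1, 44800377 to 44805990, plus strand). PPM1D encodes the phosphatase WIP1, which dephosphorylates p53 and ATM and so ends the damage signal (Entrez gene 8493, chromosome 17, 60600193 to 60666280, plus strand). Their upstream windows are shown for comparison with that of GDF15, at chr1:44800127-44800376 and chr17:60599943-60600192, with the same motifs in capitals.
PLK3 upstream: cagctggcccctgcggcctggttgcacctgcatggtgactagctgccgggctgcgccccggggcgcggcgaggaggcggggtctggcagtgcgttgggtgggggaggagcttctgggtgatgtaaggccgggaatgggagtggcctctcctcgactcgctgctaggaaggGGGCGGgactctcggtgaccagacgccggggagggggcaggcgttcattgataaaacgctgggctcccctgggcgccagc
PPM1D upstream: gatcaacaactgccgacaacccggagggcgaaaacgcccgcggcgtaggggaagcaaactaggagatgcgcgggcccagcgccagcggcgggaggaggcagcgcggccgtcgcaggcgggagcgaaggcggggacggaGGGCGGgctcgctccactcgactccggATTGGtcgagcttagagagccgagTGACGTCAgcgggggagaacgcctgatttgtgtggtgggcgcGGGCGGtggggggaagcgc
The TATAAA letters were found in the GDF15 window and in neither of these. The PPM1D window held the cAMP response element, 61 bases before the start, a CCAAT box and 2 SP1 boxes, and the PLK3 window held 1 SP1 box. From 250 bases before to 50 after the start, the best p53 match had 6 mismatches for PLK3 and 7 for PPM1D. Neither reached the limit of 3.

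The PLK3 ratio was -0.28, 0.27, -0.36 and 0.23 on the C12 arrays and 2.28, 1.49, 1.29 and 1.29 on the X-ray arrays. The groups did not overlap, and X-ray replicate 1 stood highest. PLK3 differed by -1.62 ± 0.18 (95% interval -2.01 to -1.24, limma adjusted p = 0.00221). For PPM1D the C12 arrays gave -0.17, 0.26, -0.32 and 0.17 and the X-ray arrays 1.73, 1.15, 0.98 and 1.41, again without overlap. PPM1D differed by -1.33 ± 0.16 (95% interval -1.67 to -0.99, limma adjusted p = 0.00303). Each of the 3 genes was measured by 1 feature.

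These 3 calls rested on the fit to the 8 arrays at 1h. In a fit to all 16 arrays the estimates were identical and 0 genes passed, with 278 at an unadjusted p under 0.05 and adjusted p of 0.333 for GDF15, 0.221 for PLK3 and 0.160 for PPM1D. Without X-ray replicate 1 PLK3 (adjusted p = 0.0696) and PPM1D (0.170) did not pass, without X-ray replicate 2 neither passed (0.0792 each), and without X-ray replicate 4 PPM1D did not (0.0521). GDF15 passed on leaving out any 1 of the 8 arrays (adjusted p 0.000999 to 0.0338).

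**Figure D1:**
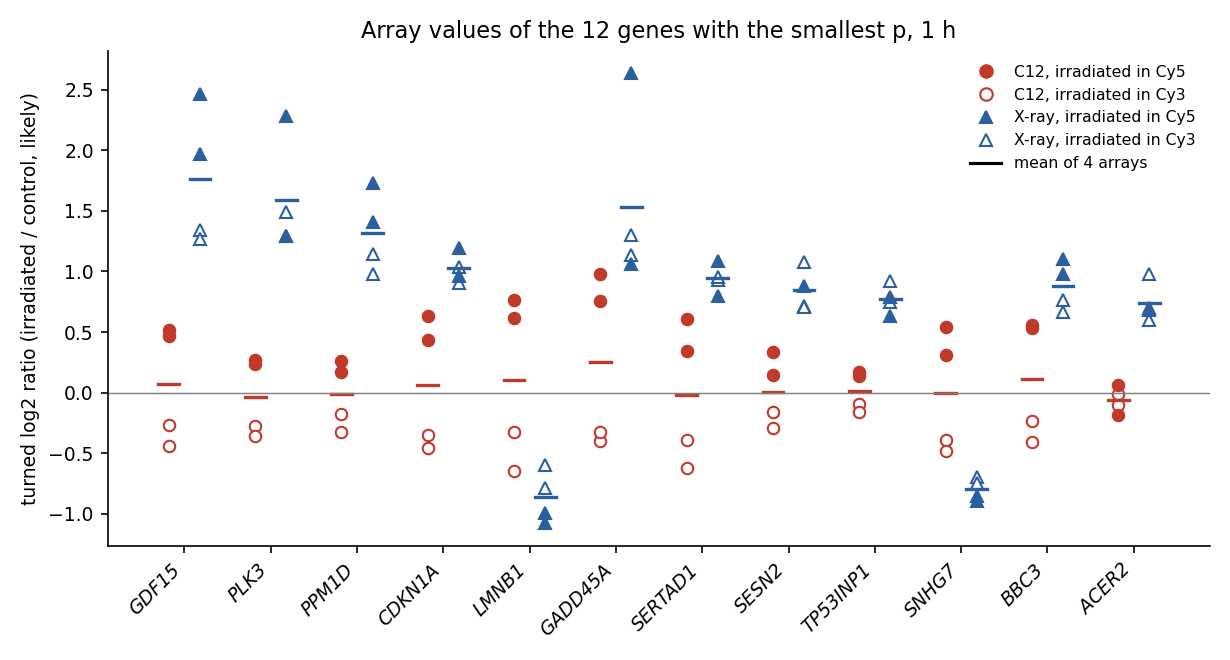
Turned log2 ratio (vertical axis) on each array for the 12 genes with the smallest p in C12 minus X-ray at 1h, with C12 arrays as circles, X-ray arrays as triangles, filled where the irradiated plate carried Cy5, and bars for the mean of 4 arrays. GDF15, PLK3 and PPM1D passed the test. With the reported signs the C12 arrays split by dye around 0 for all genes shown except ACER2. The X-ray arrays of every gene shown stood on the same side of 0.

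Against their own control plates, 6 of 18334 genes rose after X-rays (0.0327%) and 0 fell (0%). These were GDF15, PLK3, PPM1D, GADD45A, CDKN1A and BBC3, all members of the p53 target list behind the choice of sign. After C12, 0 genes rose (0%) and 0 fell (0%) in limma, with 787 at an unadjusted p under 0.05 (4.29%). That these 6 passed after X-rays and not after C12 does not show a difference between the radiations, which was tested directly and passed for 3 of them. The SD of the estimates over genes was 0.072 after C12 and 0.145 after X-rays, an order that reversed with the alternative C12 signs, where the SD after C12 was 0.372. Without X-ray replicate 1, 2 genes passed after X-rays, of which GDF15 alone is among these 6. The other was MAGEL2 (1.54, limma adjusted p = 0.0306). Without X-ray replicate 3, the 3 genes GDF15, PLK3 and PPM1D passed.

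CDKN1A encodes p21, the inhibitor of cyclin-dependent kinases that carries the G1 arrest (Entrez gene 1026, chromosome 6, 36676463 to 36687332). Its ratio was -0.35, 0.63, -0.46 and 0.43 on the C12 arrays and 1.19, 0.91, 1.04 and 0.96 on the X-ray arrays. The groups did not overlap, and all 11 of its features had a lower mean after C12. The difference of -0.96 ± 0.16 did not pass (limma adjusted p = 0.107). GADD45A, a growth arrest gene that binds PCNA and p21 (Entrez gene 1647), had C12 values of -0.40, 0.76, -0.32 and 0.98 and X-ray values of 2.64, 1.30, 1.14 and 1.06. X-ray replicate 1 lay far above the others, and the lowest X-ray array stood just above the highest C12 array. Its difference of -1.28 ± 0.22 did not pass (adjusted p = 0.130), but did without X-ray replicate 4 (-1.67, adjusted p = 0.0153).

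BBC3 encodes PUMA, a BH3-only protein that opens the mitochondrial death pathway. Its C12 values were -0.23, 0.56, -0.40 and 0.53 and its X-ray values 0.98, 0.67, 0.77 and 1.11, without overlap. BBC3 differed by -0.77 ± 0.15 (limma adjusted p = 0.295), with 2 of 3 features lower after C12 and feature differences from -1.601 to 0.201. PMAIP1, which encodes the BH3-only protein NOXA, had a difference of -0.39 ± 0.15 with all 10 features lower after C12 (adjusted p = 1.00).

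The regulators of transcription and growth signalling among the 12 leading genes had differences between -0.76 and -0.96 and did not pass. SERTAD1, a cofactor of E2F1 and CDK4, had C12 values of -0.40, 0.61, -0.63 and 0.34 and X-ray values of 1.09, 0.93, 0.95 and 0.80 (difference -0.96 ± 0.17, adjusted p = 0.130). SESN2 encodes a sestrin that restrains mTORC1 and had C12 values of -0.16, 0.33, -0.29 and 0.14 and X-ray values of 0.72, 1.08, 0.71 and 0.88 (-0.84 ± 0.16, adjusted p = 0.272). For both genes every X-ray array lay above every C12 array. TP53INP1, a p53-induced nuclear and autophagy protein gene, had C12 values of -0.09, 0.17, -0.16 and 0.14 and X-ray values of 0.63, 0.92, 0.75 and 0.79 (-0.76 ± 0.15, adjusted p = 0.295). The alkaline ceramidase gene ACER2 had C12 values of -0.008, 0.06, -0.10 and -0.18 and X-ray values of 0.70, 0.98, 0.60 and 0.68 (-0.80 ± 0.16, adjusted p = 0.332). TP53INP1 and ACER2 did not overlap between groups either, and the C12 arrays of ACER2 did not split by dye. PHLDA3, which competes with AKT for membrane lipids, and AEN, a p53-induced nuclease, had differences of -0.74 each and overlapped by 1 or more arrays (adjusted p = 1.00).

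Other well known p53 targets showed smaller differences in the mean of their features. MDM2, the ubiquitin ligase of p53, had -0.11 ± 0.16 (95% interval -0.45 to 0.23), with 6 of 11 features lower after C12. Its features disagreed, with differences from -0.724 to 0.161. The death receptor gene FAS had -0.31 ± 0.16 (-0.65 to 0.03) and was lower after C12 in all 11 features. The stress transcription factor gene ATF3 had -0.35 ± 0.17 (-0.70 to 0.006), and its 3 features ran from -0.799 to 0.005. None of these passed (adjusted p = 1.00 each).

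Genes with the opposite sign did not pass in the reported fit. TMED9 had the largest positive estimate of all genes, 1.53 ± 0.57 (limma unadjusted p = 0.0166). Some passed as higher after C12 when a C12 array was left out. These were PIK3R4 without replicate 1 (1.38, limma adjusted p = 0.0478), TMED9 without replicate 2 (2.11, 0.00879) and COL28A1 without replicate 3 (1.74, 0.00135). LMNB1 encodes lamin B1 of the nuclear lamina (Entrez gene 4001, chromosome 5, 126776623 to 126837020). Its C12 values were -0.64, 0.62, -0.32 and 0.76 and its X-ray values -0.997, -0.594, -0.783 and -1.078. C12 replicate 1 fell inside the range of the X-ray arrays, and the difference was 0.97 ± 0.17 (adjusted p = 0.130). SNHG7, a long noncoding RNA that hosts small nucleolar RNAs, had C12 values of -0.39, 0.54, -0.48 and 0.31 and X-ray values of -0.85, -0.69, -0.74 and -0.89. The groups did not overlap, and its difference was 0.79 ± 0.16 (adjusted p = 0.295). The linker histone gene H1-3 had C12 values of -0.98, 1.43, -1.93 and 0.95 and X-ray values of -2.03, -1.08, -0.58 and -1.03. Its C12 arrays covered most of the X-ray range, and its difference was 1.05 ± 0.30 (adjusted p = 1.00). TAF15, an RNA-binding protein gene, differed by 0.74 ± 0.19, but its 2 features gave -0.005 and 1.479. The splicing factor gene PRPF19 differed by 0.70 ± 0.18 (adjusted p = 1.00 for each of these genes).

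**Figure D2:**
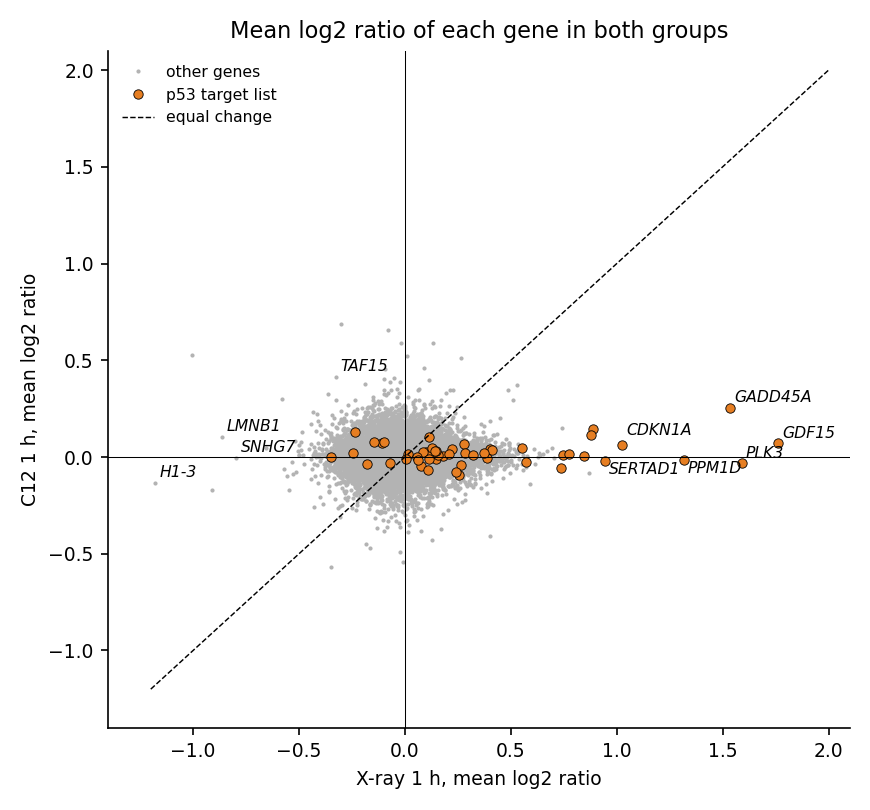
Mean log2 ratio of each of the 18334 genes after X-rays (horizontal axis) and after C12 (vertical axis), both at 1h, with members of the p53 target list as large points and a dashed line where both changes are equal. GDF15 lies at 1.76 after X-rays and 0.07 after C12, and with the alternative C12 signs it lies at 0.42 after C12. The cloud is wider along the X-ray axis with the signs shown and wider along the C12 axis with the alternative ones (SD over genes 0.372 for C12).

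On 103 genes (0.562%) the C12 and X-ray arrays did not overlap at all, with C12 lower on 82 (0.447%) and higher on 21 (0.115%). Of the 51 measured members of the p53 target list (55 genes), 13 had every C12 array below every X-ray array and 0 the reverse. In the test 3 members were lower after C12, 0 were higher and 48 did not pass, 42 differences were negative and the median was -0.181, beside -0.006 over all genes. This list was the one that entered the choice of sign. Its mean over members was -0.13, 0.27, -0.22 and 0.16 on the C12 arrays and 0.55, 0.32, 0.22 and 0.34 on the X-ray arrays, so C12 replicate 2 lay inside the X-ray range. Of the 10 measured p53 feedback regulators, PPM1D alone passed, 8 differences were negative and the median was -0.157, against 2 negative and a median of 0.129 with the alternative C12 signs.

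Among 20 snoRNA host genes, whose introns release small nucleolar RNAs and whose spliced RNAs often turn over fast, 16 were measured, 0 passed in limma and 4 had an unadjusted p under 0.05. A total of 15 differences were negative and the median was -0.246, with SNHG7 the single positive one. Over all genes 48.1% of differences were positive and 2.40% had an unadjusted p under 0.05. With the alternative C12 signs 5 of the 16 were negative and the median was 0.194. SNHG15 had -0.63 ± 0.17 and SNHG8 -0.59 ± 0.17. The list mean was -0.59, 0.60, -0.43 and 0.39 on the C12 arrays and 0.22, 0.365, 0.052 and 0.257 on the X-ray arrays. The C12 arrays thus ran both above and below all X-ray arrays.

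Of 38 measured histone genes, 30 differences were positive, the median was 0.190, 0 passed and 5 had an unadjusted p under 0.05. Over all genes 48.1% were positive and 2.40% had such a p. With the alternative C12 signs 1 of the 38 was negative and the median was 0.593. The list mean was -0.307, 0.547, -0.549 and 0.276 on the C12 arrays and -0.414, -0.321, -0.055 and -0.047 on the X-ray arrays. X-ray replicates 1 and 2 were lowest among the X-ray arrays, and C12 replicate 3 was lower than any of them. H1-5 had a difference of 0.49 ± 0.17 and H4C5 of 0.51 ± 0.22.

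Of 44 measured genes of the G1/S transition and DNA replication, 36 differences were negative, the median was -0.082, 0 passed and 2 had an unadjusted p under 0.05. Over all genes 48.1% were positive and 2.40% had such a p. With the alternative C12 signs 2 of the 44 were negative and the median was 0.414. CDC6, which loads the replicative helicase, had C12 values of -0.66, 0.52, -0.58 and 0.53 and X-ray values of 0.75, 0.61, 0.40 and 0.53. C12 replicates 2 and 4 overlapped the X-ray arrays, and the difference was -0.62 ± 0.15 (adjusted p = 1.00). PCNA, the sliding clamp of the replication fork and a p53 target, had an estimate of -0.46 ± 0.19 with the reported signs, -0.720 to -0.191 on leaving out 1 array and 0.188 with the alternative C12 signs. CDC6 stood at -0.001 with the latter. With the reported signs the 49 measured mitotic genes were spread around 0, with 26 positive, a median of 0.006, 0 passed and 2 at an unadjusted p under 0.05. INCENP, a subunit of the chromosomal passenger complex, stood highest at 0.88 ± 0.33. With the alternative C12 signs 2 of the 49 differences were negative and the median was 0.484.

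Among DNA repair genes 0 passed, and the medians below hold for the reported signs. Among 31 measured genes of break signalling and repair the median was -0.043 and 0 passed, also at an unadjusted p under 0.05, with MDC1, a scaffold at DNA breaks, at -0.34 ± 0.17. Among 28 genes of base and nucleotide excision repair the median was -0.040, 0 passed and 1 had an unadjusted p under 0.05, the endonuclease gene ERCC5 with -0.45 ± 0.17. The BCL2 family had 21 measured members, a median of -0.038, 0 that passed and 3 at an unadjusted p under 0.05.

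The stress and signalling lists also held 0 genes that passed, and with the reported signs their medians lay between -0.044 and 0.040. Among 48 immediate early genes 24 were positive, the median was -0.001 and 6 had an unadjusted p under 0.05, among them the phosphatase genes DUSP6 at 0.51 ± 0.18 and DUSP1 at 0.37 ± 0.15 and the transcription factor gene KLF6 at 0.43 ± 0.16. The 2 features of DUSP1 gave -0.041 and 0.782. The medians were 0.003 for 28 NF-kB and inflammatory genes, -0.015 for 25 interferon response genes and -0.044 for 25 NRF2 and oxidative stress genes. They were -0.028 for 28 genes of ATF4 and the unfolded protein response, 0.040 for 21 heat shock genes, 0.026 for 29 hypoxia genes and 0.010 for 27 TGF-beta targets and matrix genes. SNAI1, a repressor of epithelial genes counted among the last, differed by -0.57 ± 0.17.

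The remaining lists served as reference. The median was -0.012 for 16 housekeeping genes and 0.030 for 37 cytosolic ribosomal protein genes. It was -0.071 for 9 lung epithelial markers, 0.044 for 10 fibroblast and endothelial markers and 0.012 for 5 blood cell markers. In limma 0 of these genes passed, and 0 had an unadjusted p under 0.05.

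**Figure D3:**
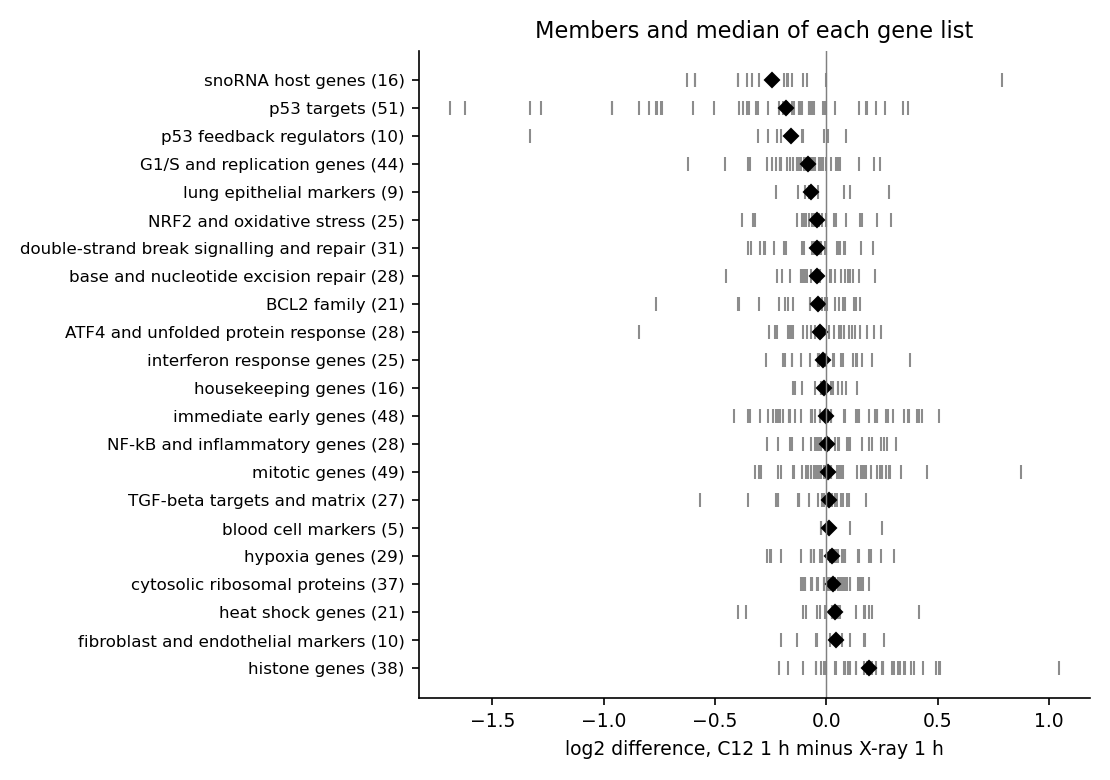
Differences C12 minus X-ray at 1h on the log2 scale (horizontal axis) for the measured members (ticks) and the median (diamond) of 22 gene lists, with the number measured in brackets. With the signs shown the snoRNA host list has the lowest median at -0.246 and the histone list the highest at 0.190. With the alternative C12 signs the snoRNA host median is 0.194, the lowest is that of the fibroblast and endothelial list at -0.317 and the histone median is 0.593.

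With the reported signs, most of the variation among the C12 arrays ran along the dye. After C12, 88.3% of the sum of squares over all genes and arrays ran along the dye of the irradiated plate, 3.28% along the group mean and 8.41% was left. After X-rays these shares were 43.7%, 14.7% and 41.6%. With the alternative C12 signs the dye share and the mean share of C12 change places. C12 arrays of the same dye correlated over genes with r of 0.854 and 0.875, and those of opposite dye with r between -0.874 and -0.851, over genes of the same libraries. With the reported signs the ribosomal protein list followed the dye in both groups. It stood at -0.169, 0.303, -0.302 and 0.122 on the C12 arrays and 0.588, -0.694, -0.803 and 0.756 on the X-ray arrays. Housekeeping genes did so too, at -0.338, 0.431, -0.441 and 0.336 after C12 and 0.515, -0.425, -0.319 and 0.274 after X-rays. After the dye term the median residual SD of a gene was 0.115 for C12 and 0.258 for X-rays, and a C12 array weighed 4.83 times an X-ray array.

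**Figure D4:**
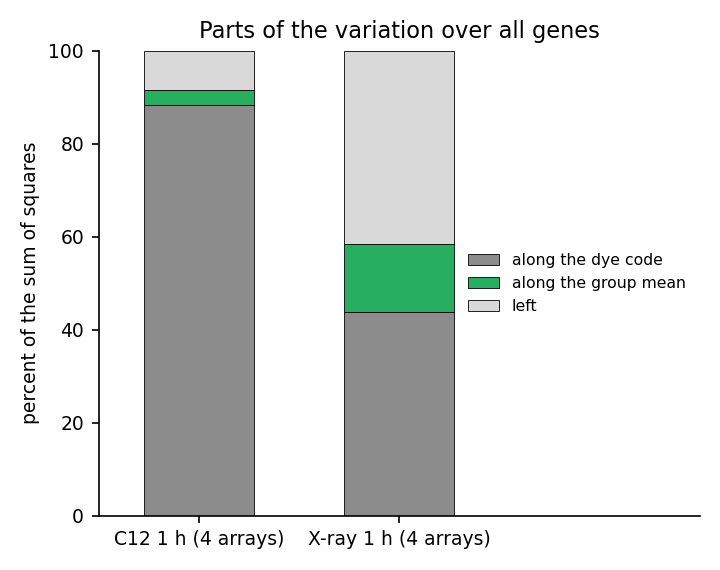
Percent of the sum of squares of turned log2 ratios over all genes (vertical axis, stacked bars) along the dye code, along the group mean and left, for the 4 C12 arrays and the 4 X-ray arrays at 1h. With the reported signs the dye part is 88.3% after C12 and 43.7% after X-rays. With the alternative C12 signs the dye part and the mean part of C12 change places.

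Opposite correlations between C12 arrays leave their signs unsettled, so the comparison was also made with C12 replicates 1 and 3 turned once more, which exchanges the C12 mean with its dye coefficient. This setting was added after the data had been seen. The 3 genes stayed lower after C12, with differences of -1.34 ± 0.16 for GDF15 (limma adjusted p = 0.00395), -1.30 ± 0.18 for PLK3 (0.0127) and -1.08 ± 0.16 for PPM1D (0.0177). Their C12 means became 0.42, 0.29 and 0.23, and all 3 passed against control (limma adjusted p = 6.34e-05, 0.00301 and 0.00464). Against control 14059 of all 18334 genes then passed after C12, and 14 of 16 housekeeping genes did. The comparison called 367 of 18334 genes, 315 higher and 52 lower. LMNB1 (1.45 ± 0.17), SNHG7 (1.22 ± 0.16) and H1-3 (2.501 ± 0.30) were among those higher after C12. The median over all genes became 0.019. Of the 22 list medians, 13 changed sign. The p53 list median became -0.115, with 30 of 51 negative and 6 lower and 1 higher in the test. The snoRNA host median became 0.194 with 1 of 16 genes higher, the G1/S median 0.414 with 1 of 44 higher, and the median of break signalling and repair 0.107 with 1 of 31 higher. Immediate early genes reached 0.475 with 6 of 48 higher and mitotic genes 0.484 with 6 of 49 higher. Histone genes reached 0.593 with 10 of 38 higher and housekeeping genes 0.464 with 1 of 16 higher, beside 315 of 18334 over all genes. Heat shock genes stood at 0.404, NRF2 genes at 0.367, ATF4 genes at 0.366 and hypoxia genes at 0.244. GDF15, PLK3 and PPM1D were the genes that passed with both sets of C12 signs.

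At 4h both radiations showed positive estimates for these p53 targets, in the fit to all 16 arrays. The 4h arrays were turned by the same rule, so the direction of these p53 list members is no evidence there either. GDF15 stood at 1.02 ± 0.14 after C12 and 1.74 ± 0.35 after X-rays, PLK3 at 0.78 and 1.29, and PPM1D at 0.61 and 1.07. CDKN1A stood at 1.12 after C12 and 1.45 after X-rays, and GADD45A at 0.92 and 1.12. SERTAD1 stood at 0.17 and 0.99, SESN2 at 0.25 and 0.86, and TP53INP1 at 0.61 and 1.66. ACER2 stood at 0.51 and 1.41. With the reported signs the estimated gap between the radiations was smaller at 4h than at 1h for 10 of the 12 leading genes. It was larger for TP53INP1 and ACER2. These genes were chosen by their difference at 1h, which by itself favours a larger gap at 1h. The count also depends on the C12 signs, as SERTAD1 differed by -0.45 at 1h with the alternative ones, beside -0.82 at 4h. When the 1h difference was set against the 4h difference directly, 0 of 18334 genes passed in either direction (0%), with 268 at an unadjusted p under 0.05. The difference at 1h minus that at 4h was -0.97 ± 0.53 for GDF15 (unadjusted p = 0.080), -1.11 ± 0.47 for PLK3 (0.0263), -0.87 ± 0.36 for PPM1D (0.0246) and -0.74 ± 0.23 for BBC3 (0.00452). With the reported signs a change of the gap with time was thus not shown for any gene. It was not tested with the alternative C12 signs.

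**Figure D5:**
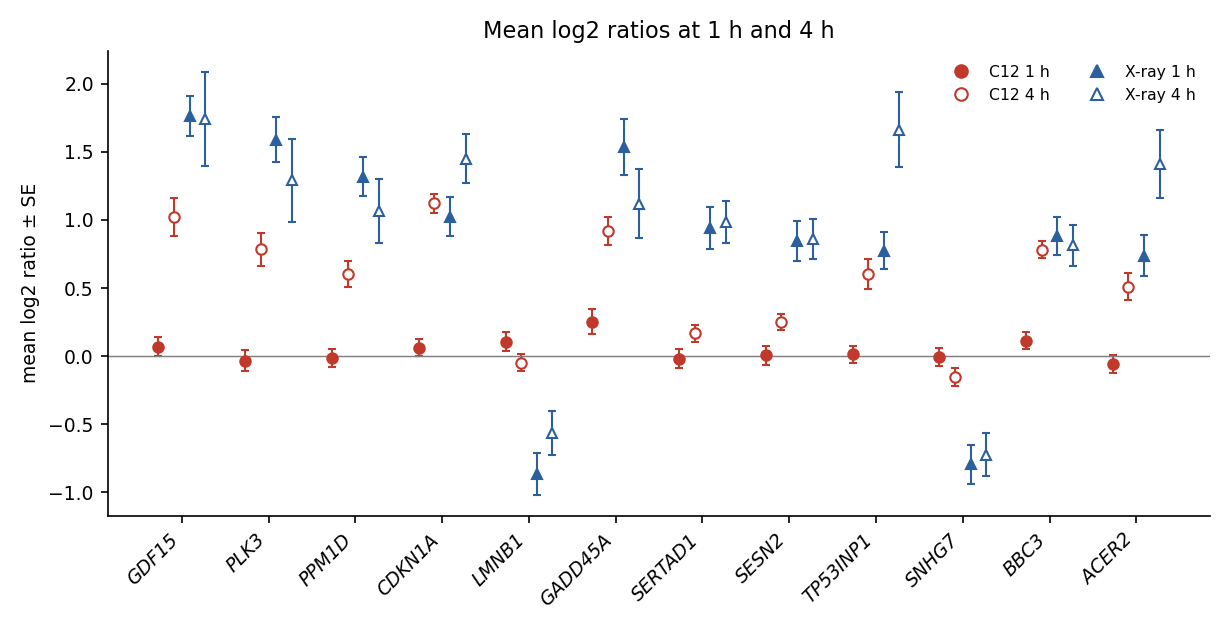
Mean log2 ratio with SE (vertical axis) for the 12 genes with the smallest p at 1h, after C12 (circles) and X-rays (triangles), at 1h (filled, fit to 8 arrays) and 4h (open, fit to 16 arrays). With the reported signs GDF15 stands at 0.07 at 1h and 1.02 at 4h after C12, and at 1.76 and 1.74 after X-rays. With the alternative C12 signs it stands at 0.42 at 1h after C12.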

How the data were processed

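The values used were log2 ratios per feature and array as deposited by the authors. Per the submitters' processing notes limma was used, with no version. Neither background correction, normalization, log base nor direction is stated in those notes or the labels. Base 2 was assumed, and all 16 arrays had nearly the same distribution. No signals were used, so dim features could not be filtered. Of 45220 features, 31332 carried 1 gene symbol, 93 several (left out) and 13795 none (tested apart). Features of a symbol were averaged to 18334 genes.

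Testing used limma 3.58.1 with statmod 1.5.0 in R 4.3.3 on the 8 arrays at 1h, with 2 group means, 1 dye coefficient per radiation quality, array weights per quality and empirical Bayes (4 residual and 10.76 prior degrees of freedom). The change of the difference with time was tested on all 16 arrays. Sign rule, genes and lists, and the choice of 8 arrays were made with earlier results of these data known, including calls of GDF15 and PPM1D. On simulated data the share of false calls came out above the nominal threshold, so calls near it are less certain than their adjusted p.

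Named genes were those that passed with the next smallest p up to 20, the 5 largest differences each way at an unadjusted p under 0.01, 3 members per list, p53 list members that passed in either group, 13 genes known from earlier results, and the largest C12 dye coefficients. Not all of them are described. Same-numbered arrays did not deviate together (r -0.174 to -0.033 after the dye term), so replicate numbers were not used as pairs. Alternatives covered the arrays fitted, spread, dye term, feature summary, centring, sign, replicate block and each array left out.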

Additional observations from a re-analysis of the deposited data

Results flagged for a closer look

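In 56 groups of 4 values looked at, 2 held an array far from the others, and chance alone flags about 1 in 20 such groups. GADD45A on X-ray replicate 1 stood at 2.636, while the other X-ray arrays lay between 1.063 and 1.298. ATF3 on X-ray replicate 4 stood at -0.192, with the others between 0.366 and 0.466. Among the 13795 features without a gene name, 1 was lower after C12 than after X-rays and 1 rose after X-rays against control. These features entered no comparison of genes.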

How the results depend on the processing

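The number of genes that differed between C12 and X-rays at 1h was 3 in the reported fit. It was 0 with all 16 arrays, 0 without a dye term, 0 with ratios as deposited and 0 with ratios turned by the labelled dye, 2 with equal spread, and 367 with the C12 arrays turned along the dye code; the cause was not tested. Leaving out 1 array gave 1 to 4 genes. The 1 without X-ray replicate 2 was GDF15, and the 2 without X-ray replicate 1 were GDF15 and MAGEL2 (-1.62, limma adjusted p = 0.0338). The random and the fixed replicate block each gave 3, the same genes, and the block changed no call of this comparison. Without a dye term the adjusted p was 1.00 for GDF15 and 0.992 for PLK3 and PPM1D, and with equal spread it was 0.0688 for PLK3. For C12 against control the count was 0 in the reported fit, 0 to 13 when 1 array was left out (13, 9, 3 and 1 without C12 replicates 1 to 4) and 14059 with the C12 arrays turned along the dye code. For X-rays against control it was 6, with 14 under equal spread, 1 with each quality fitted alone, 3 without a dye term, 3 with a shared dye term, 0 as deposited, 0 by the labelled dye, 5 with the random replicate block and 2 to 7 when 1 array was left out. The 1h minus 4h contrast gave 0 under every setting run, with 1745 genes at an unadjusted p under 0.05 without X-ray 4h replicate 2 and 1807 with 1 weight per array. That contrast was not run with the C12 arrays turned along the dye code. Of the values of named genes under the settings other than those of sign, 1588 kept direction and side of the threshold, 12 lost and 2 gained the threshold, and 13 changed sign. TMED9 passed without C12 replicate 2 (2.11, adjusted p = 0.00879). Those changes of sign came on leaving out 1 array, with differences from -0.549 to 0.0188 for IRF1, -0.0276 to 0.547 for CXCL3, -0.150 to 0.900 for IFI44, -0.0214 to 0.461 for NEIL3, -0.814 to 0.0878 for HSPH1, -0.607 to 0.153 for CDH1, -0.0129 to 0.230 for CD3E, -0.0704 to 0.0184 for PTPRC and -0.594 to 0.280 for NPIPB3. With the C12 arrays turned along the dye code, 27 of 85 named genes changed sign and 14 more gained the threshold, among them LMNB1 and SNHG7. Those that changed sign included PCNA (0.188), MDC1 (0.200), MCM4 (0.248), BCL2L2 (0.156) and CCNG1 (0.0831). Without signals over background, the precision at dim features is unknown.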
